A study of Danio rerio with 18 samples.

Results

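The step from 15 to 30 days post fertilisation (dpf) in whole maternal zygotic scospondin mutants was measured by RNA sequencing of 3 libraries at 30 dpf against 3 at 15 dpf. These 6 libraries, taken by genotype and age from the sample titles, are part of a series of 18. The series compared zebrafish (Danio rerio) heterozygous for the stl297 allele of scospondin (het) with maternal zygotic mutants (MZ) at 5, 15 and 30 dpf, with 3 libraries in each group. The allele is described as hypomorphic, so gene function is lowered and not removed, and the series title concerns the Reissner fibre and scoliosis, a curvature of the spine. MZ fish are mutants born to mutant mothers, so the egg lacked normal maternal product as well. All 6 MZ libraries carry the same allele, and the labels list no treatment. The number of fish in a library is not stated, nor is whether libraries are of different clutches. Here n therefore means libraries, and the p-values measure the spread between these alone, which may be technical. The count columns name het fish "ox" and MZ fish "homoz", so parents and background may differ between the genotypes.

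Zebrafish turn from larvae into juveniles in these weeks. Embryonic haemoglobins give way to adult ones, the larval fin fold is replaced by fins with bony rays, scales and the adult skeleton mineralise, the thymus seeds the body with T cells, and the gonad, which passes through an ovary-like phase, begins to take on its sex. Scospondin is a giant secreted glycoprotein that builds the Reissner fibre, a thread running in the cerebrospinal fluid from the brain down the spinal cord. Loss of the fibre in zebrafish leads to body or spine curvature, which in juveniles develops over this same period.

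Total counts lay between 10799674 and 14979165 in the 6 libraries, and each library had counts for 23567 to 24488 of the gene names. The 10 most abundant genes took 12.99% to 17.06% of the counts. No pair of libraries in a group agreed within sampling noise, since the chi-square per degree of freedom between them was 5.772 or more. Markers of fast muscle, liver, neurons, red cells, lens, rods and exocrine pancreas were present in every library, as the whole-body label states. In whole-body RNA, fewer cells of a type and less RNA per cell cannot be told apart. Levels are given as CPM (counts relative to the library total, adjusted by TMM factors), and are relative to all other RNA in the fish.

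Of 19564 genes tested, 3770 (19.3%) changed between 15 and 30 dpf at an adjusted p under 0.05 in the quasi-likelihood F test of edgeR. The libraries of the ages did not overlap in 3705 of the called genes and in 7435 of all tested genes, so separate groups are the rule among called genes, and the genes named for the highest and lowest fold changes were required to have them. Of the tested genes, 1999 (10.2%) rose and 1771 (9.05%) fell. These shares, and the 19.3% for both directions, are the background for the counts of every list. Among them, 1031 rose and 547 fell by more than 2-fold. The median log2 fold change over all genes was -0.000369, and the median absolute log2 fold change was 0.319. Fold changes here are 30 over 15 dpf, and "rose" or "fell" is used only of genes that passed the test. A gene with almost no counts at 15 dpf could pass the filter on low counts only through its level at 30 dpf. A rise was then the only call open to it, in whatever list it stands. The reverse holds for genes almost absent at 30 dpf. In het fish, which share no library with the MZ comparison, 4277 of 19910 genes (21.5%) were called for the same step. Of the 19302 genes tested in both, 1941 were called in both, which is 52.1% of the MZ calls and 46.5% of the het calls, and 1887 of these moved in the same direction. The number of MZ calls was 2434 without replicate 2 and 2480 without replicate 3 of the 15 dpf group, and 5768 in one fit over all 18 libraries.

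**Figure D1:**
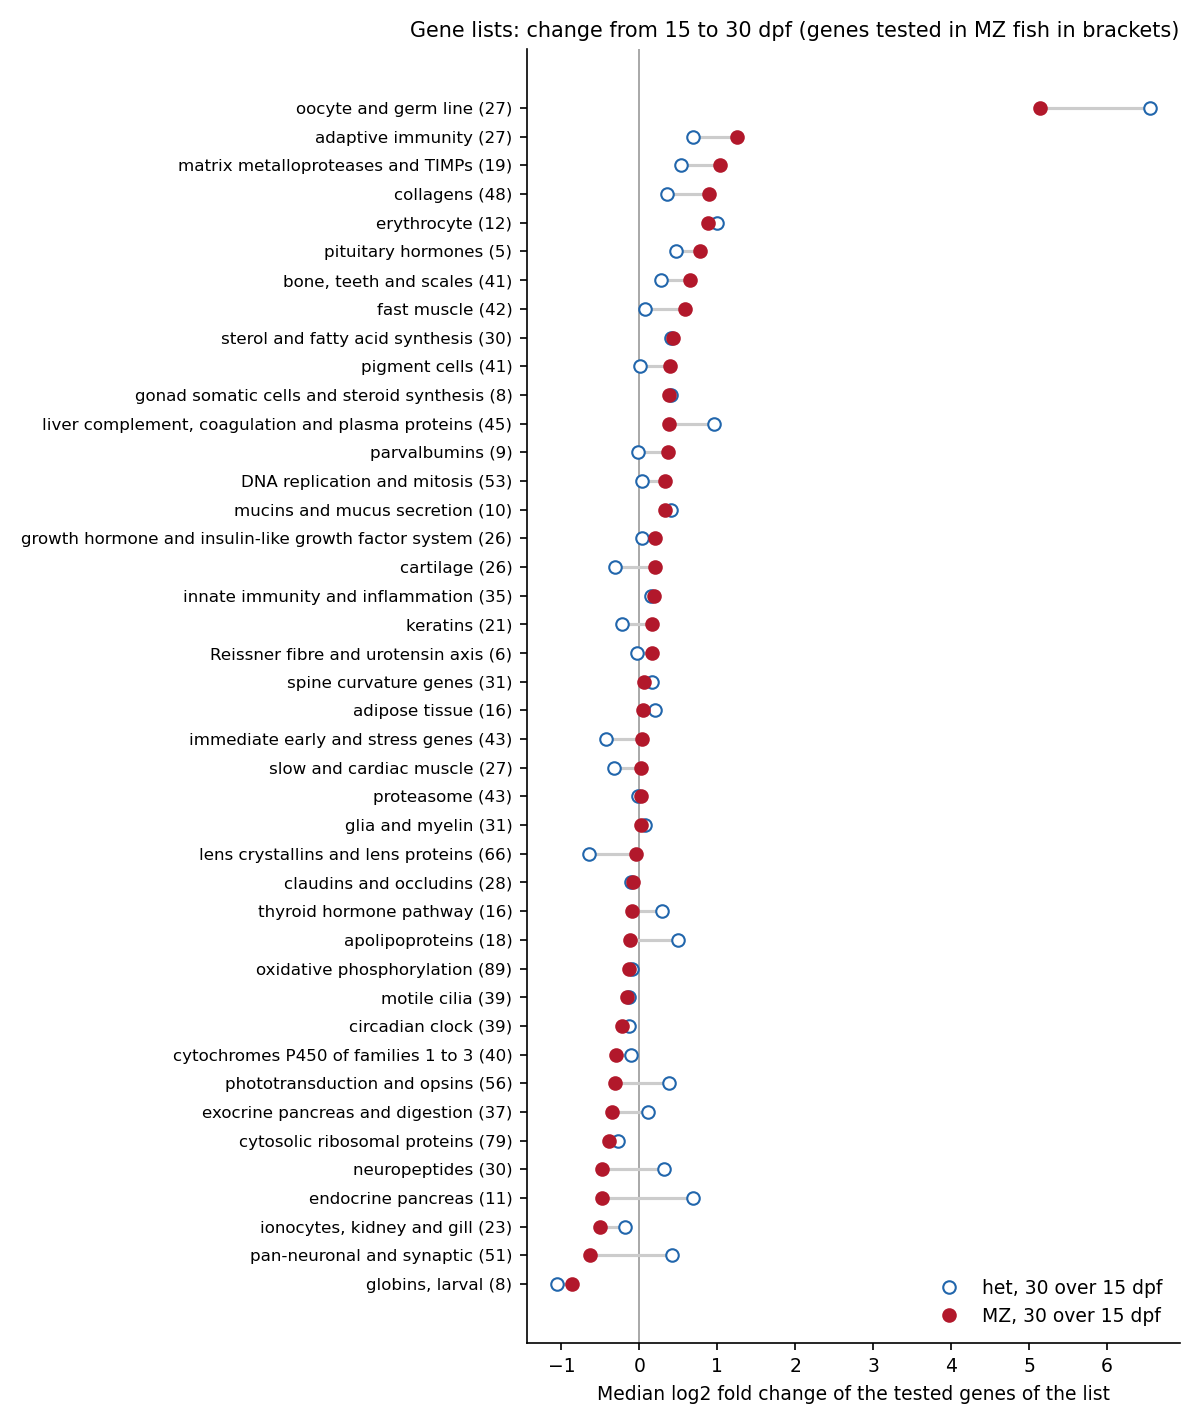
Median log2 fold change from 15 to 30 dpf of the tested genes of each gene list with at least 5 tested genes, in MZ fish (filled) and het fish (open); the number of genes tested in MZ fish is in brackets. In MZ fish the oocyte list lies highest at 5.14 and the larval globins lowest at -0.86, while the neuronal list lies at -0.63 in MZ and at 0.42 in het fish.

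The haemoglobin genes changed widely. Adult globins went from almost no counts to some of the more abundant transcripts, and most larval globins fell. hbaa1, an adult alpha globin, stood at 0, 0 and 0 CPM in the 3 libraries at 15 dpf and at 714, 954 and 1117 CPM at 30 dpf. This is at least 3438-fold higher against a floor of 3 counts in each 15 dpf library (adjusted p = 5.04e-08). The adult beta globin ba1 went from 0.0770, 0 and 0.0864 to 913, 1193 and 1451 CPM, a ratio of 20384 (counting interval 5643 to 168325), and rested on 2 counts at 15 dpf. ba1l, another adult beta globin, was at 0 in each library at 15 dpf and at 21.02, 10.54 and 4.19 CPM at 30 dpf, at least 44.2-fold higher (adjusted p = 0.00049). Adult globins were at or near 0 at 15 dpf, so they could pass the filter on low counts only through a high level at 30 dpf. A rise was thus the only call open to them. All 4 tested adult globins rose, and another, si:ch211-5k11.6, had too few counts to be tested, with 0 counts at 15 dpf and 124 at 30 dpf, most of them in replicate 3. The smallest of them, zgc:92880, was also carried by replicate 3, at 1.02, 1.73 and 23.8 CPM, and was no longer called when replicate 1 of the 15 dpf group was left out (adjusted p = 0.051).

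Of 8 tested larval globins, 5 fell and 2 rose. The smallest fall, of hbbe1.1 (log2 fold change -0.51), lost its call in 5 of 6 fits with a library left out (edgeR adjusted p up to 0.0874). hbae3, an embryonic alpha globin, went from 630.1, 572 and 492 to 136, 112 and 152 CPM (log2 fold change -2.03, SE 0.15, adjusted p = 7.8e-06). All 30 dpf libraries lay below all 15 dpf libraries. The beta globin hbbe1.2 fell from 126, 112 and 85.6 to 33.1, 20.9 and 30.5 CPM (log2 fold change -1.88, SE 0.19, adjusted p = 7.59e-05). hbz moved the other way, from 234, 46.2 and 29.99 to 591, 766 and 432 CPM (log2 fold change 2.57, SE 0.60, adjusted p = 0.0127), and RefSeq lists that name as a synonym of both hbae4 and hbae5. It was not called without replicate 2 of the 15 dpf group (adjusted p = 0.0513). hbbe2 rose as well, with a log2 fold change of 0.93, but its groups overlapped, and it was not called by DESeq2 (adjusted p = 0.0974) or in 3 of 6 fits with a library left out (edgeR adjusted p up to 0.111). Globin copies are similar enough to share reads, so the split between them is uncertain. The summed larval globins stayed in one range, 2399, 1753 and 1589 CPM at 15 dpf and 1838, 1886 and 1605 CPM at 30 dpf, while the summed adult globins went from 0.0770, 0 and 0.0864 to 1649, 2159 and 2603 CPM.

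Of 12 other genes of red cells, 8 rose and 0 fell, with a median log2 fold change of 0.88 against -0.000369 over all genes. alas2, the first enzyme of haem synthesis in red cells, went from 20.6, 10.9 and 10.9 to 39.6, 51.8 and 49.6 CPM (log2 fold change 1.78, SE 0.23, adjusted p = 0.000404). cahz, the red cell carbonic anhydrase, rose by 1.43 and slc4a1a, the anion exchanger of the red cell membrane, by 1.29 on the log2 scale. The transcription factor klf1, which drives globin and membrane genes, rose by 1.19. Later enzymes of haem synthesis did not pass the test, with log2 fold changes of 0.07 for fech and 0.10 for urod. The count of risen genes was 5 without replicate 2 of the 15 dpf group.

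**Figure D2:**
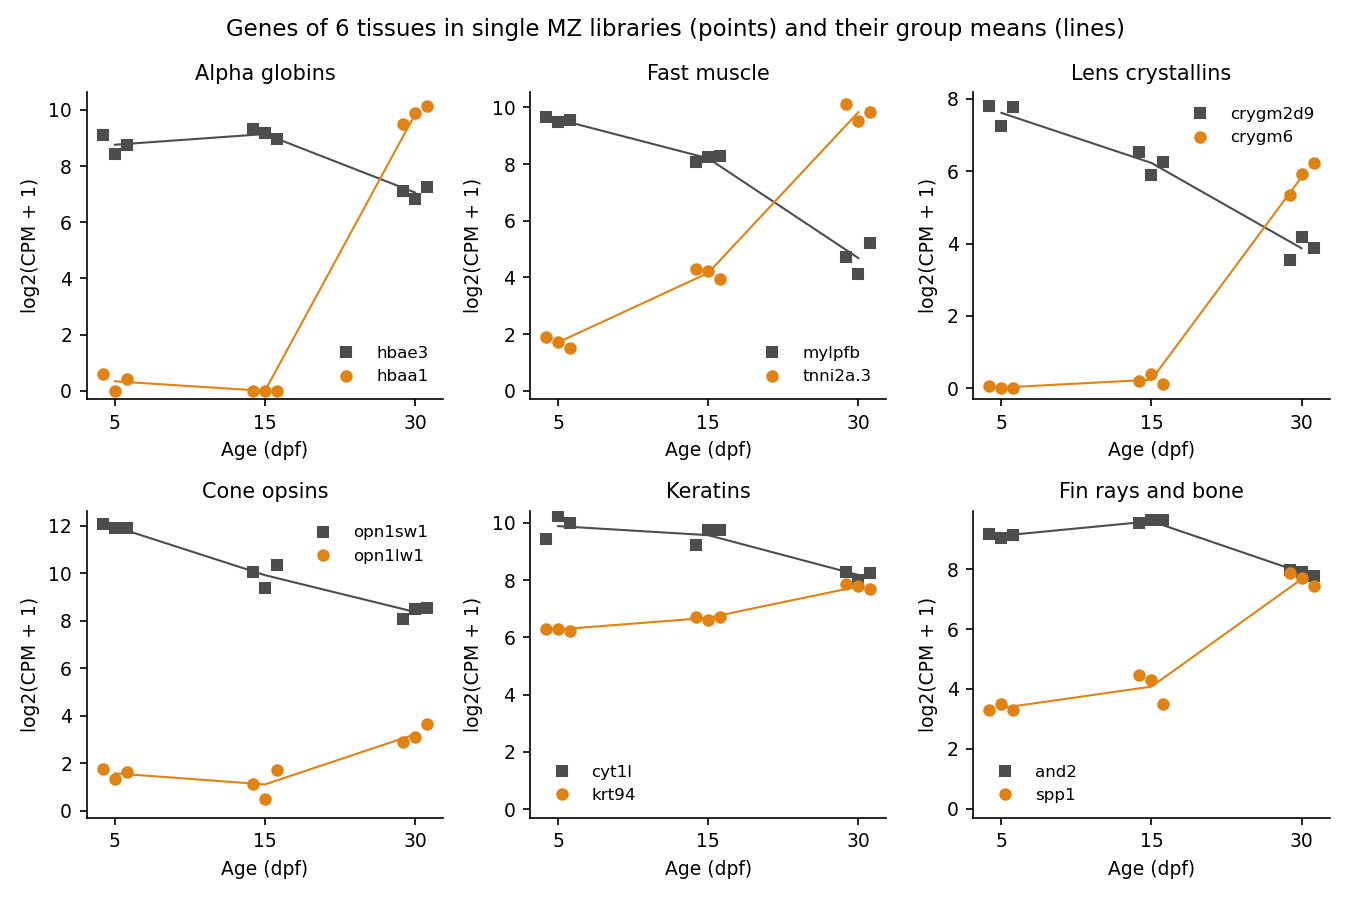
log2(CPM + 1) against age in the MZ libraries at 5, 15 and 30 dpf for a falling gene (squares) and a rising gene (circles) of each of 6 tissues; points are single libraries and lines join group means. hbaa1 is at 0 CPM in the 3 libraries at 15 dpf and at 714 CPM or more at 30 dpf. CPM is not corrected for gene length, so each gene is to be compared with itself across ages.

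Genes of the egg appeared between 15 and 30 dpf. Of 35 genes of oocytes and the germ line, 27 passed the filter on low counts and 24 of them rose, with 0 that fell. The filter admits a gene with enough counts in 1 group of libraries, so a gene near 0 at 15 dpf could enter only through a high level at 30 dpf. The summed level of the list was 14.2, 17.2 and 17.1 CPM at 15 dpf and 203, 1004 and 138 CPM at 30 dpf. Replicate 2 thus held several times the oocyte RNA of the other 30 dpf libraries. The het libraries at 30 dpf were spread as well, at 1031, 838 and 276 CPM, with replicate 3 the lowest. How this spread relates to the sex or stage of the fish was not tested.

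zp3a.1, a protein of the egg envelope, was at 0 in every 15 dpf library and at 9.76, 125 and 9.65 CPM at 30 dpf, at least 178-fold higher (adjusted p = 0.00527). Its sister zp3.2 stood at 38.6, 265 and 30.5 CPM at 30 dpf and had 1 count in the whole 15 dpf group. zp2.3 (at least 104-fold higher) and zp2l1 (at least 46.3-fold) showed the same order of libraries. Copies of zp genes share sequence, so their single values are uncertain. btg4, which acts in clearing maternal mRNA from mature oocytes, was at 0 at 15 dpf and at 6.38, 21.5 and 4.72 CPM at 30 dpf. buc, the organiser of the Balbiani body of early oocytes, went from 0.154, 0.319 and 0 to 7.32, 21.4 and 2.33 CPM (log2 fold change 6.09, SE 0.97, adjusted p = 0.00154). Genes of germ cells of both sexes rose less, with log2 fold changes of 2.77 for ddx4, the vasa helicase, and 2.86 for piwil1, of the piRNA pathway. ddx41, a helicase outside the list, followed the oocyte genes in its library order, with 0 counts at 15 dpf and 2.75, 27.2 and 3.13 CPM at 30 dpf.

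Replicate 2 at 30 dpf also led in genes of other lists. The claudins cldnd and cldng, which build tight junctions, stood at 56.4, 191 and 35.5 CPM and 13.9, 50.5 and 12.2 CPM at 30 dpf, against 0.231, 0.426 and 0.173 CPM and 0.308, 0.106 and 0.0864 CPM at 15 dpf. The mitotic cyclin ccnb2 went from 2.93, 2.98 and 4.06 to 9.44, 24.2 and 6.05 CPM (log2 fold change 2.05, SE 0.44, adjusted p = 0.00871). Both claudins and ccnb2 were highest in the library that was highest for the oocyte list.

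Of 23 genes of the somatic cells of the gonad, 8 passed the filter and 2 rose, or 25% against the background of 19.3%. The number was 4 without replicate 3 of the 30 dpf group. gsdf, a growth factor of the cells around the germ cells, went from 0.462, 0.958 and 0.346 to 12.4, 12.05 and 8.45 CPM (log2 fold change 4.31, SE 0.34, adjusted p = 1.52e-05), and its 3 libraries at 30 dpf lay close together. hsd11b2, which inactivates cortisol and also serves androgen synthesis, rose by 1.19 on the log2 scale (adjusted p = 0.00314). The testis markers amh (15 counts at 15 dpf and 41 at 30 dpf) and dmrt1 (9 and 40 counts) were too low to be tested. None of 7 vitellogenins, the liver-made yolk precursors of adult females, passed the filter, and vtg1 stood at 0.157, 0 and 0.0665 CPM at 30 dpf.

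**Figure D3:**
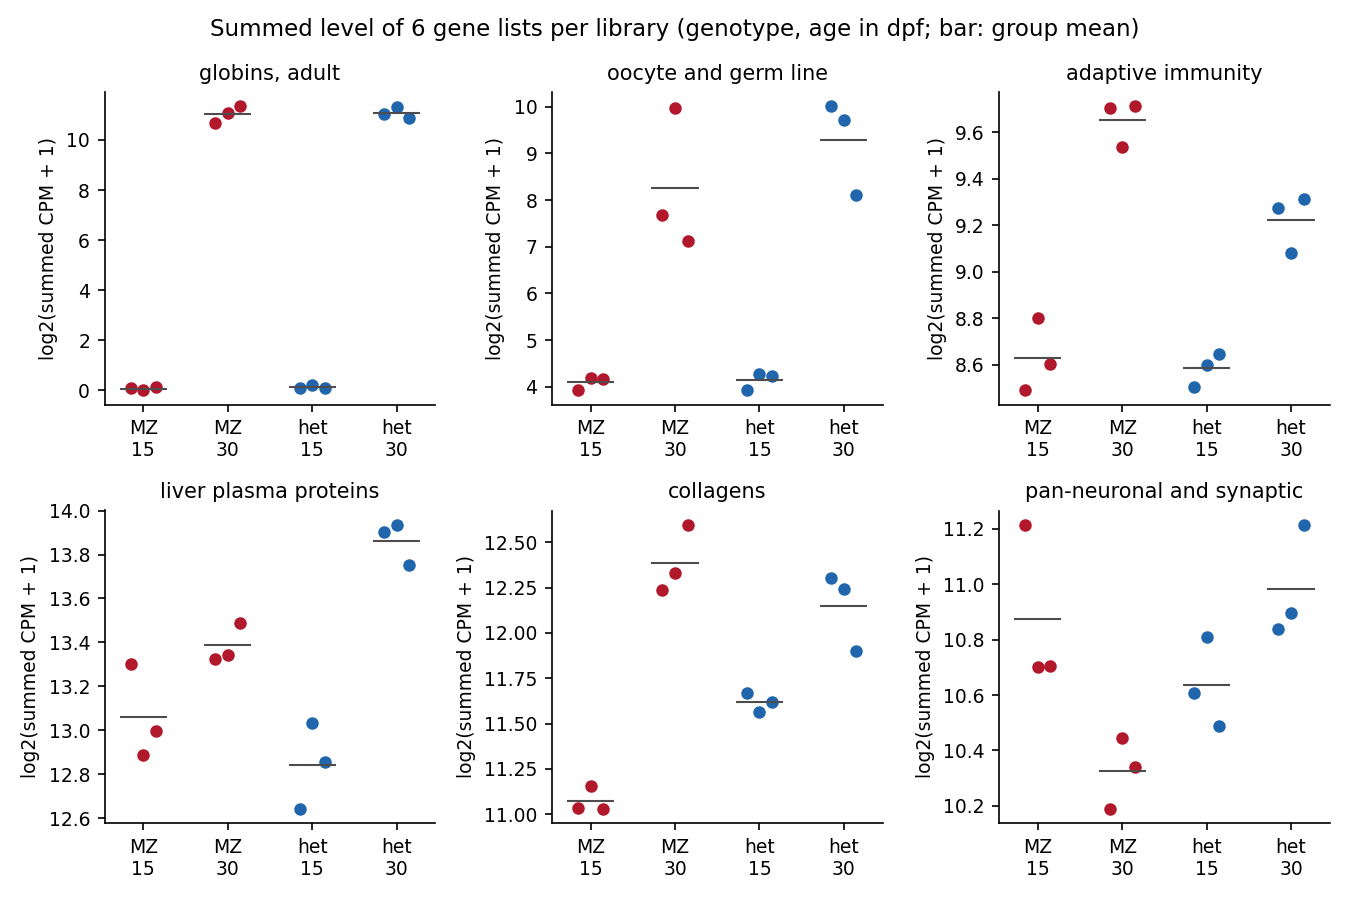
Summed CPM of 6 gene lists in each library, as log2(summed CPM + 1), for MZ and het fish at 15 and 30 dpf; points are libraries and bars group means, and each panel has its own scale. Oocyte RNA spreads widely at 30 dpf in both genotypes, collagens and adaptive immunity lie higher at 30 dpf without overlap in both, and the neuronal list lies lower at 30 dpf in MZ fish and higher in het fish.

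In skeletal muscle, most genes of the contractile apparatus rose, and some fell steeply. Of 42 tested fast muscle genes, 25 rose and 6 fell, and the median log2 fold change was 0.59. tnni2a.3, a fast troponin I, went from 18.7, 17.6 and 14.6 to 1109, 741 and 917 CPM (log2 fold change 5.82, SE 0.19, adjusted p = 3.34e-08). The myosin heavy chain gene myha went from 7.40, 9.69 and 10.54 to 441, 224 and 462 CPM (log2 fold change 5.41, SE 0.28, adjusted p = 1.01e-06). mylpfb, a fast regulatory light chain, fell from 271, 303 and 310.0 to 25.5, 16.4 and 36.0 CPM (log2 fold change -3.44, SE 0.23, adjusted p = 5.33e-06). In all 3 genes the libraries of the 2 ages were far apart. Of the other fast genes, mybpc2a, a myosin binding protein C, rose by 2.80 and the giant proteins titin (ttna) and nebulin (neb) by 1.19 and 0.88 on the log2 scale. tnnt3a, a fast troponin T, fell by 1.28 and atp2a1, the calcium pump of fast fibres, by 0.76. The muscle creatine kinase ckma gave a log2 fold change of -0.01 (adjusted p = 0.964), and the summed level of the list overlapped between the ages, at 106000.0, 112900.0 and 110200.0 against 140100.0, 119000.0 and 108100.0 CPM.

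Slow and cardiac muscle genes split evenly, with 7 of 27 that rose and 7 that fell. Myoglobin (mb), the oxygen store of slow fibres, went from 12.6, 12.3 and 11.1 to 27.0, 56.3 and 42.5 CPM (log2 fold change 1.86, SE 0.23, adjusted p = 0.000286). smyhc2, a slow myosin heavy chain, rose by 1.15 and its partner mybpc1 by 1.04, while cardiac alpha actin (actc1a) fell by 1.29 on the log2 scale. Of the parvalbumins, calcium buffers that speed muscle relaxation, 3 of 9 rose and 3 fell. pvalb3 went from 163, 97.3 and 89.4 to 412, 428 and 467 CPM (log2 fold change 1.95, SE 0.20, adjusted p = 9.74e-05) and pvalb8 from 272, 336 and 314 to 126, 121 and 111 CPM (log2 fold change -1.31, SE 0.12, adjusted p = 3.46e-05). Of the muscle forms of cytochrome oxidase subunits, cox6a2 and cox7a1 rose, cox6a2 from 15.4, 16.4 and 12.5 to 62.6, 56.2 and 52.5 CPM and cox7a1 by 0.90 on the log2 scale, while cox6a1, the form of other tissues, fell by 0.52. Of other subunits, cox5b2 rose by 1.98 and cox8a fell by 0.41 on the log2 scale. cox8a lost its call in 4 of 6 fits with a library left out. Over all 89 genes of oxidative phosphorylation 3 rose and 4 fell, or 7.87% against the background of 19.3%, and 1 fell without replicate 2 or 3 of the 15 dpf or replicate 3 of the 30 dpf group, and 2 without replicate 1 of the 15 dpf or replicate 2 of the 30 dpf group. The slow and cardiac genes that fell numbered 2 without replicate 2 or replicate 3 of the 15 dpf group, and 4 without replicate 2 or replicate 3 of the 30 dpf group.

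Many genes of skeleton and connective tissue were higher at 30 dpf. Of 48 tested collagen genes, 27 rose and 3 fell, or 62.5% against the background of 19.3%. The median log2 fold change was 0.89, with summed levels of 2097, 2276 and 2088 CPM at 15 dpf and 4816, 5156 and 6194 CPM at 30 dpf. col10a1b, a collagen of hypertrophic cartilage and fish osteoblasts, went from 5.55, 1.06 and 0.951 to 59.4, 55.7 and 86.9 CPM (log2 fold change 4.71, SE 0.45, adjusted p = 5.13e-05). col5a2b, a fibril-forming collagen, went from 6.32, 5.22 and 3.37 to 47.4, 42.7 and 49.4 CPM (log2 fold change 3.27, SE 0.20, adjusted p = 3.04e-06). The groups of both genes were well apart. The collagens that fell were col8a1a, col4a5 and col17a1a, with log2 fold changes of -1.75, -0.70 and -0.44. col8a1a lost its call in 3 of 6 fits with a library left out and col17a1a in 4, and 1 collagen fell without replicate 2 of the 15 dpf group or replicate 1 of the 30 dpf group.

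Of 41 tested genes of bone, teeth and scales, 19 rose and 3 fell, or 53.7% against the background of 19.3%. spp1, or osteopontin, a phosphoprotein of mineralised matrix, went from 20.9, 18.5 and 10.3 to 232, 208 and 171 CPM (log2 fold change 3.67, SE 0.23, adjusted p = 4.29e-06). The osteoblast regulator sp7 rose from 1.62, 1.28 and 0.778 to 3.23, 2.79 and 4.92 CPM (log2 fold change 1.62, SE 0.36, adjusted p = 0.00949), and runx2b, which acts above it, by 3.26 on the log2 scale. entpd5a, which is needed for mineralisation in zebrafish, rose by 2.85, and mgp, a matrix protein that restrains it, went from 1.31, 0.745 and 2.25 to 25.0, 19.4 and 7.45 CPM. The osteoclast enzymes acp5a and ctsk rose by 2.58 and 0.62. bglap (osteocalcin) had 0 counts at 15 dpf and 7 at 30 dpf and was not tested.

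The members of the bone and fin list that fell include the actinodins, proteins of the actinotrichia, the unmineralised rods of the larval fin fold. and2 went from 739, 796 and 788 to 250.1, 239 and 219 CPM (log2 fold change -1.66, SE 0.11, adjusted p = 5.42e-06), and1 from 744, 818 and 801 to 385, 374 and 273 CPM, and and3, from outside the list, from 154, 197 and 185 to 35.2, 33.1 and 35.1 CPM (log2 fold change -2.31, SE 0.12, adjusted p = 1.01e-06). All 30 dpf libraries lay below all 15 dpf libraries for each of the 3 genes. cmn (calymmin), a matrix gene of the notochord and its sheath in zebrafish, fell from 5.78, 6.07 and 9.59 to 0.315, 0.452 and 1.46 CPM (log2 fold change -3.15, SE 0.45, adjusted p = 0.000715).

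In cartilage, 6 of 26 genes rose and 2 fell, or 30.8% against the background of 19.3%. Without replicate 1 or 2 of the 15 dpf or replicate 1 of the 30 dpf group, 1 fell. ucmaa, a Gla-rich protein of cartilage, went from 12.6, 9.79 and 8.04 to 78.3, 78.3 and 61.9 CPM (log2 fold change 2.89, SE 0.18, adjusted p = 3.71e-06), and chad, or chondroadherin, rose by 1.78 on the log2 scale. matn1, a matrilin, stood at 122, 327 and 93.3 CPM at 30 dpf against 70.1, 52.9 and 34.3 CPM, again with replicate 2 highest. Of 19 matrix metalloproteases and their inhibitors, 10 rose and 1 fell. mmp13b, a collagenase, went from 0.539, 0.532 and 0.778 to 11.8, 14.5 and 13.6 CPM (log2 fold change 4.46, SE 0.25, adjusted p = 1.81e-06), and the gelatinase mmp2 from 76.7, 74.3 and 69.8 to 212, 223 and 190.1 CPM (log2 fold change 1.56, SE 0.11, adjusted p = 7.92e-06). mmp13b could pass the filter only through 30 dpf, so a rise was the only call open to it. mmp28 alone fell, by 1.30 on the log2 scale.

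In the skin, 5 of 21 keratins rose and 7 fell, or 57.1% against the background of 19.3%. cyt1l, a type I keratin, went from 592, 853 and 866 to 309, 258 and 303 CPM (log2 fold change -1.35, SE 0.15, adjusted p = 0.000156) and krt94 from 105, 96.5 and 105 to 232, 219.9 and 205 CPM (log2 fold change 1.16, SE 0.11, adjusted p = 4.52e-05). Of the genes of mucus secretion, muc5.1, a gel-forming mucin, rose by 0.97 and agr2, which folds mucins, by 0.84 on the log2 scale. mucms1 went the other way, from 7.16, 18.8 and 19.5 to 0, 3.77 and 3.59 CPM, but DESeq2 did not call it (adjusted p = 0.251; 0.0761 and 0.076 in edgeR without replicate 2 or 3 of the 15 dpf group). Of 23 genes of ionocytes, kidney and gill, 8 fell and 1 rose, or 39.1% against the background of 19.3%. Between 0 and 2 of them rose when a library was left out. slc12a10.2, the chloride transporter of skin ionocytes, went from 14.02, 17.9 and 17.98 to 3.86, 5.87 and 5.72 CPM (log2 fold change -1.63, SE 0.20, adjusted p = 0.000287), and rhcga, an ammonia channel, from 144, 196 and 153 to 67.3, 78.9 and 68.5 CPM (log2 fold change -1.14, SE 0.14, adjusted p = 0.000231). The keratins that fell numbered 3 without replicate 2 or 3 of the 15 dpf group or replicate 3 of the 30 dpf group. Among 28 claudins and occludins, 6 rose and 7 fell, or 46.4% against the background of 19.3%. Those that fell numbered 2 and 3 without replicate 2 and replicate 3 of the 15 dpf group.

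Of the crystallins, the packing proteins of the lens, some rose and others fell. The summed level of the lens list overlapped between the ages, at 21230, 22610 and 28020 CPM at 15 dpf and 16080, 28210 and 19170 CPM at 30 dpf. Of 66 tested lens genes, 25 rose and 21 fell, and the median log2 fold change was -0.04. All of those that fell belonged to the crygm2d cluster except lim2.4, lim2.5 and crygmxl2, which lost their calls without replicate 3 of the 15 dpf group (adjusted p = 0.0688, 0.0613 and 0.186). In all, crygmxl2 lost its call in 5 of 6 fits with a library left out and in 3 fits of all libraries, and lim2.4 in 3 of 6 fits with a library left out. One of the crygm2d cluster is crygm2d9, which went from 91.1, 58.5 and 75.0 to 10.7, 17.02 and 13.8 CPM (log2 fold change -2.38, SE 0.20, adjusted p = 2.14e-05). crygm6 went from 0.154, 0.319 and 0.0864 to 39.4, 59.9 and 74.0 CPM (log2 fold change 8.33, SE 0.37, adjusted p = 3.65e-07), and crygm4 from 0 in each library to 8.19, 13.4 and 8.32 CPM, at least 36.9-fold higher. Both could pass the filter only through 30 dpf, so a rise was the only call open to them. crybb2, a beta crystallin, went from 3.93, 0.213 and 0.432 to 83.4, 145 and 129 CPM (log2 fold change 6.21, SE 0.53, adjusted p = 2.47e-05). The chaperone-like alpha crystallin cryaba rose by 4.85 on the log2 scale. Crystallin copies are near-identical in places and may share reads.

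In the retina, 4 of 56 tested genes of phototransduction rose and 11 fell, or 26.8% against the background of 19.3%. opn1sw1, the ultraviolet cone opsin, went from 1065, 656 and 1284 to 264, 363 and 370.3 CPM (log2 fold change -1.54, SE 0.22, adjusted p = 0.000771), and arr3b, a cone arrestin, from 302, 172 and 314 to 80.4, 118 and 113 CPM (log2 fold change -1.28, SE 0.22, adjusted p = 0.00216). Of the opsins of other cones, opn1mw3, opn1mw2 (green) and opn1lw1 (red) rose. opn1mw3 had the highest fitted log2 fold change of these, 7.24, which ran from 6.54 to 7.48 under the alternatives. In the list, 1 tested gene was at 0 counts in all libraries of an age. The fitted value of opn1mw3 rests on counts at or near 0 at 15 dpf, so its size is not measured. It could pass the filter only through 30 dpf, and a rise was the only call open to it. opn1mw2 went from 8.01, 8.41 and 10.9 to 32.2, 38.6 and 31.4 CPM (log2 fold change 1.96, SE 0.16, adjusted p = 1.84e-05). opn1lw1 went from 1.16, 0.426 and 2.25 to 6.38, 7.68 and 11.6 CPM (log2 fold change 2.76, SE 0.42, adjusted p = 0.00106). The rod opsin rho gave a log2 fold change of 0.32 (adjusted p = 0.341). Tandem opsin copies may share reads. Without replicate 2 of the 15 dpf group, 18 genes of the list fell. Without its replicate 3, 7 rose and the median log2 fold change of the list was -0.0196, against -0.31 with all libraries.

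Neuronal transcripts were lower at 30 dpf. Of 51 tested pan-neuronal and synaptic genes, 22 fell and 4 rose, and the median log2 fold change was -0.63. The summed level was 2372, 1665 and 1670.0 CPM at 15 dpf and 1166, 1392 and 1295 CPM at 30 dpf, without overlap, with replicate 1 at 15 dpf well above the rest. gad1b, which makes the transmitter GABA, went from 56.7, 33.4 and 46.5 to 16.8, 19.96 and 24.1 CPM (log2 fold change -1.11, SE 0.20, adjusted p = 0.00257). slc6a1a, which takes GABA up again, went from 50.3, 27.1 and 29.5 to 16.0, 16.3 and 13.8 CPM (log2 fold change -1.17, SE 0.22, adjusted p = 0.00402). grin1b, a subunit of NMDA receptors, went from 45.5, 25.5 and 31.3 to 8.97, 10.99 and 20.6 CPM (log2 fold change -1.28, SE 0.29, adjusted p = 0.0102). The RNA-binding protein elavl3, a marker of most neurons, fell by 0.72 on the log2 scale. The 4 genes that rose were neurofilaments of large axons, led by neflb, from 18.3, 13.1 and 12.01 to 29.8, 36.1 and 23.7 CPM (log2 fold change 1.10, SE 0.20, adjusted p = 0.00318), and 2 and 1 genes rose without replicates 2 and 3 of the 15 dpf group. Without replicate 1 of the 15 dpf group, or without replicate 1 of the 30 dpf group, 11 genes of the list fell.

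Of 31 genes of glia and myelin, 6 rose and 6 fell, or 38.7% against the background of 19.3%, with a median log2 fold change of 0.02. mbpa, myelin basic protein, went from 207, 224 and 201 to 591, 551 and 419 CPM (log2 fold change 1.36, SE 0.14, adjusted p = 8.95e-05). plp1b rose by 1.42 and mpz, another major myelin protein, by 1.45 on the log2 scale. Among those that fell were glutamate transporters of radial glia and astrocytes, slc1a2b from 209.7, 102 and 83.6 to 51.2, 52.1 and 65.9 CPM (log2 fold change -1.17, SE 0.28, adjusted p = 0.0146) and slc1a3b by 0.96. The glial genes that fell numbered 2 without replicate 2 of the 15 dpf group, and 3 without its replicate 3 or without replicate 1 of the 30 dpf group.

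Of 30 tested neuropeptides, 10 fell and 2 rose, or 40% against the background of 19.3%. rln3a, a relaxin of a brainstem nucleus, had the largest fall of all genes that met the naming rule, from 12.9, 4.68 and 7.69 to 0.394, 0.226 and 0.200 CPM (log2 fold change -4.88, SE 0.48, adjusted p = 6.65e-05). gnrh2, the midbrain form of gonadotropin-releasing hormone, went from 4.70, 2.13 and 3.80 to 0.394, 1.20 and 0.133 CPM (log2 fold change -2.58, SE 0.56, adjusted p = 0.00878). cart4, a feeding-related peptide, went from 6.70, 4.68 and 4.49 to 1.02, 0.904 and 0.931 CPM (log2 fold change -2.42, SE 0.30, adjusted p = 0.000287). The peptides that rose numbered 0 without replicate 2 of the 15 dpf or replicate 1 of the 30 dpf group, and 1 in 3 of the other 4 fits with a library left out. Of 5 tested pituitary hormones 0 passed in edgeR and in DESeq2, and 1 had an unadjusted p under 0.05 in edgeR. It was cga, the subunit shared by gonadotropins and thyrotropin, at 2.39, 2.13 and 0.951 against 2.91, 3.31 and 3.73 CPM (adjusted p = 0.084). fshb, the follicle-stimulating hormone subunit, had 2 counts at 15 dpf and 38 at 30 dpf, too few for the filter, a ratio of 15.7 (counting interval 4.06 to 135). It entered and was called in 4 of 6 edgeR fits with a library left out, with adjusted p between 0.01 and 0.0308.

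Liver products rose in part. Of 45 genes of complement, coagulation and other plasma proteins, 17 rose and 0 fell, or 37.8% against the background of 19.3%. Their median log2 fold change was 0.38. hpx, the haem-binding plasma protein, went from 7.55, 0.958 and 0.519 to 364, 246 and 322 CPM (log2 fold change 6.64, SE 0.58, adjusted p = 2.74e-05). Replicate 1 at 15 dpf was the highest of its group for hpx, and still far below every 30 dpf library. The complement components c6 and c7a rose by 1.28 and 1.62 on the log2 scale. Of 18 apolipoproteins, 2 rose and 3 fell, or 27.8% against the background of 19.3%. Among those that fell was apoa1a, from 4628, 6260.1 and 7478 to 3615, 2319 and 3512 CPM (log2 fold change -0.90, SE 0.20, adjusted p = 0.00996). apoa1a was not called without replicate 3 of the 15 dpf group (adjusted p = 0.0539). The apolipoproteins that fell numbered 1 without that library and 5 without replicate 3 of the 30 dpf group, and 1 rose without replicate 2 or 3 of the 15 dpf group. The plasma proteins that rose numbered 7 and 10 without replicate 2 and replicate 3 of that group, and 1 fell without its replicate 2.

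Genes of gut and pancreas leaned the other way, with 12 of 37 that fell and 5 that rose, or 45.9% against the background of 19.3%. slc15a1b, the peptide transporter of the gut, went from 261, 348 and 367 to 149.6, 102 and 159.9 CPM (log2 fold change -1.19, SE 0.18, adjusted p = 0.000916), and the pancreatic lipid enzyme pla2g1b from 115, 145 and 167 to 62.2, 58.9 and 61.5 CPM (log2 fold change -1.17, SE 0.14, adjusted p = 0.000192). chia.4, an acidic chitinase of the gut, rose from 0.231, 0.745 and 1.38 to 8.03, 15.7 and 2.53 CPM (log2 fold change 3.54, SE 0.67, adjusted p = 0.00425). Of the endocrine pancreas, pdx1, the master regulator of the organ, fell by 1.58 on the log2 scale (adjusted p = 0.00167), and insulin (ins) varied from 10.9, 1.597 and 6.65 to 1.495, 5.72 and 6.25 CPM with overlap (adjusted p = 0.604). Without replicate 2 or replicate 3 of the 15 dpf group, 6 and 5 genes of the digestive list fell.

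Lipid metabolism showed opposed parts. Of 30 genes of sterol and fatty acid synthesis, 15 rose and 0 fell. scd, which desaturates fatty acids, went from 2.08, 2.87 and 3.54 to 10.6, 7.46 and 7.92 CPM (log2 fold change 1.67, SE 0.26, adjusted p = 0.0012), and mvda, of the mevalonate pathway, from 17.5, 23.1 and 21.3 to 49.3, 45.1 and 33.1 CPM (log2 fold change 1.11, SE 0.17, adjusted p = 0.00113). Among adipose genes, the hormone gene adipoqb rose from 1.31, 1.17 and 0.778 to 4.88, 4.59 and 4.12 CPM (log2 fold change 2.10, SE 0.30, adjusted p = 0.000689), while the lipid droplet protein plin2 fell from 82.6, 128 and 180.2 to 56.2, 34.0 and 59.2 CPM (log2 fold change -1.33, SE 0.26, adjusted p = 0.00498). pck1, a rate-setting enzyme of glucose synthesis, went from 635, 833 and 865 to 244, 152 and 279 CPM (log2 fold change -1.73, SE 0.20, adjusted p = 0.000202). tdo2b, which breaks down tryptophan, went from 13.7, 6.81 and 9.68 to 1.89, 0.979 and 0.732 CPM (log2 fold change -3.03, SE 0.37, adjusted p = 0.000283). Of 40 cytochromes P450 of families 1 to 3, which oxidise drugs, toxins and lipids, 16 fell and 0 rose, led by cyp2k6, from 7.24, 1.70 and 4.67 to 0.0787, 0.301 and 0.266 CPM (log2 fold change -4.28, SE 0.61, adjusted p = 0.000771). The sterol genes that rose numbered 9 without replicate 2 of the 15 dpf or replicate 1 of the 30 dpf group, and the P450 genes that fell numbered 8, 9 and 10 without replicates 2 and 3 of the 15 dpf group and replicate 1 of the 30 dpf group.

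Of 41 genes of adaptive immunity, 27 passed the filter, of which 14 rose and 0 fell, with a median log2 fold change of 1.25. As in the oocyte list, a gene near 0 at 15 dpf could pass only through a high level at 30 dpf. cd8a, the co-receptor of cytotoxic T cells, had 1 count at 15 dpf and stood at 1.73, 1.05 and 1.86 CPM at 30 dpf, a ratio of 53.0 (counting interval 9.17 to 2125). rag1, an enzyme of antigen receptor rearrangement in thymus and kidney, went from 8.86, 11.8 and 6.22 to 15.7, 25.8 and 19.8 CPM (log2 fold change 1.25, SE 0.24, adjusted p = 0.00447). b2m, the light chain of class I antigen-presenting molecules, went from 9.86, 11.6 and 12.8 to 105, 59.8 and 105 CPM (log2 fold change 3.04, SE 0.22, adjusted p = 7.54e-06). The T cell kinase lck rose by 1.37 on the log2 scale. The class I heavy chain mhc1uba stood at 7.71, 38.5 and 61.5 CPM at 30 dpf, with replicate 1 close to the 15 dpf level of 5.32, 5.32 and 6.48 CPM. Class I genes differ between fish haplotypes, and how this bears on the spread was not tested. Of the proteasome, 6 of 43 genes rose and 1 fell (0 without replicate 2 or 3 of the 15 dpf or replicate 1 of the 30 dpf group), or 16.3% against the background of 19.3%. The largest rises were in subunits of the immunoproteasome, which cuts peptides for class I, with psmb9a from 2.31, 1.81 and 1.64 to 6.77, 8.96 and 12.97 CPM (log2 fold change 2.36, SE 0.29, adjusted p = 0.000286).

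Innate immune genes were mixed, with 8 of 35 that rose and 4 that fell, or 34.3% against the background of 19.3%. nos2a, an inducible nitric oxide synthase, went from 5.39, 6.07 and 2.85 to 36.8, 21.5 and 28.5 CPM (log2 fold change 2.66, SE 0.27, adjusted p = 8.01e-05), and ptprc (CD45), on all white cells, from 5.70, 6.60 and 4.93 to 10.9, 9.34 and 10.4 CPM (log2 fold change 0.89, SE 0.19, adjusted p = 0.00752). irg1l, which is induced in inflamed skin and macrophages, fell from 81.7, 36.6 and 62.0 to 17.5, 15.2 and 8.98 CPM (log2 fold change -2.07, SE 0.29, adjusted p = 0.000722). The number that rose was 5 without replicate 2 of the 15 dpf or replicate 3 of the 30 dpf group, and 4 without replicate 3 of the 15 dpf or replicate 1 of the 30 dpf group, and 2 fell without replicate 3 of the 15 dpf group.

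Among genes of growth, of 79 cytosolic ribosomal protein genes, 48 fell and 0 rose, with a median log2 fold change of -0.39 and summed levels of 123300.0, 145000.0 and 140400.0 CPM at 15 dpf and 107500.0, 96820.0 and 94220.0 CPM at 30 dpf. The number of calls depended on single libraries, since 2 and 4 fell without replicates 2 and 3 of the 15 dpf group, and 8 and 9 without replicates 2 and 3 of the 30 dpf group. Without replicate 1 of the 15 dpf group 55 fell, and without replicate 1 of the 30 dpf group 36. The median of the list ran from -0.46 to -0.34 under the alternatives. DNA replication and mitosis had 12 of 53 genes that rose and 0 that fell, led by ccnb2, or 22.6% against the background of 19.3%. Between 4 and 5 genes of that list rose without replicate 1, 2 or 3 of the 15 dpf group or replicate 2 of the 30 dpf group. Without replicate 1 of the 30 dpf group 8 rose, and without its replicate 3, 17 rose. igf2a, a growth factor, went from 8.94, 9.15 and 11.1 to 30.1, 29.5 and 23.4 CPM (log2 fold change 1.56, SE 0.16, adjusted p = 8.48e-05), and igfbp3, which binds it, from 17.9, 21.2 and 18.8 to 33.5, 33.3 and 34.9 CPM (log2 fold change 0.87, SE 0.12, adjusted p = 0.000642). In the growth hormone and insulin-like growth factor system as a whole, 5 of 26 genes rose and 1 fell, or 23.1% against the background of 19.3%. The number that rose was 3 in each of 5 fits that left out any single library except replicate 2 of the 15 dpf group. The number that fell was 0 without replicate 1 of either age and 3 without replicate 3 of the 30 dpf group.

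Of 6 tested genes of the Reissner fibre and its downstream peptides, 0 were called in edgeR or DESeq2 and 0 had an unadjusted p under 0.05. 1 gene, clu, was called in 1 of 6 edgeR fits with a library left out. scospondin had 13 counts in the 15 dpf group and 11 in the 30 dpf group, or 0.154, 0.426 and 0.605 and 0.394, 0.0753 and 0.333 CPM, too few to be tested, so neither the allele nor the age step can be read from it here. The urotensin-related peptides of neurons that contact the spinal fluid, which straighten the body axis, stood at 3.08, 2.55 and 3.54 and 1.81, 2.64 and 1.33 CPM for urp1 (log2 fold change -0.62, adjusted p = 0.203) and at 2.77, 2.98 and 2.07 and 2.83, 1.81 and 0.998 CPM for urp2 (log2 fold change -0.42, adjusted p = 0.477). Their groups overlapped. clu, or clusterin, gave a log2 fold change of 0.28 (adjusted p = 0.171), and of 0.40 without replicate 3 of the 30 dpf group (edgeR adjusted p = 0.0434). Of 39 tested genes of motile cilia, which move the fluid, 1 rose and 0 fell, or 2.56% against the background of 19.3%. The gene that rose is tppp3, a tubulin-binding protein, from 30.7, 34.0 and 29.2 to 47.9, 48.5 and 40.0 CPM (log2 fold change 0.60, SE 0.13, adjusted p = 0.00768). Of 31 genes linked to spine curvature, 5 rose and 1 fell, close to the background of 19.3%. ptk7a, whose loss gives scoliosis in zebrafish, went from 6.70, 6.60 and 5.36 to 11.02, 10.99 and 10.4 CPM (log2 fold change 0.85, SE 0.18, adjusted p = 0.00697), and the number that rose was 3 without replicate 2 or replicate 3 of the 15 dpf group, and 0 fell without replicate 2 of the 15 dpf or replicate 1 of the 30 dpf group.

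The step from 15 to 30 dpf differed between the genotypes in 468 of 20523 genes (2.28%) by the interaction of age and genotype in edgeR, 213 with a higher and 255 with a lower fold change in MZ fish. Of the 468 genes, 216 were called in MZ fish and not in het fish, 136 in het and not in MZ fish, and 110 in both, 52 of these in opposite directions. The total depended on single libraries. It was 5 without replicate 1 of the het 15 dpf group, 5 without replicate 1 of the MZ 30 dpf group, 41 and 71 without replicates 3 and 2 of the het 30 dpf group, 112 and 165 without replicates 3 and 2 of the het 15 dpf group and 194 without replicate 1 of the MZ 15 dpf group. DESeq2 called 1025 genes. Clutch and background were not separated from the allele and cannot be told apart from it.

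The neuronal list carried many of these genes. Of 52 genes tested for the interaction, 16 were called, each with a lower step in MZ fish, against 2.28% of all genes. In het fish 21 of the tested genes rose and 1 fell, with a median log2 fold change of 0.42, and the summed level was 1560.0, 1794 and 1437 CPM at 15 dpf and 1828, 1903 and 2376 CPM at 30 dpf. gad1b stood at 31.4, 37.5 and 23.6 CPM in het fish at 15 dpf and at 39.5, 39.5 and 49.2 CPM at 30 dpf, and its step differed by -1.60, SE 0.28, adjusted p = 0.0204. For slc6a1a the het values were 27.5, 32.7 and 17.9 and 30.1, 31.8 and 42.4 CPM and the difference -1.60, SE 0.33, adjusted p = 0.0308. For both genes the genotypes overlapped at 15 dpf, and all MZ libraries lay below all het libraries at 30 dpf. Of 32 neuropeptides, 7 were called, all with a lower step in MZ fish. rln3a had het values of 2.93, 4.09 and 0.443 and 1.72, 5.62 and 4.48 CPM and differed by -5.57, SE 0.93, adjusted p = 0.0204, and gnrh2 by -3.43, SE 0.83, adjusted p = 0.0456. For rln3a all MZ libraries at 15 dpf lay above all het libraries, so its lower step also reflects a higher start. The neuronal genes called numbered 0 without replicate 1 of the het 15 dpf or of the MZ 30 dpf group, 1 and 4 without replicates 3 and 2 of the het 30 dpf group, 5 without replicate 3 of the het 15 dpf group and 7 without replicate 1 of the MZ 15 dpf group. DESeq2 called 27. In each of these fits no neuronal gene was called with a higher step in MZ fish. The neuropeptides called numbered between 0 and 7 over the 12 fits.

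**Figure D4:**
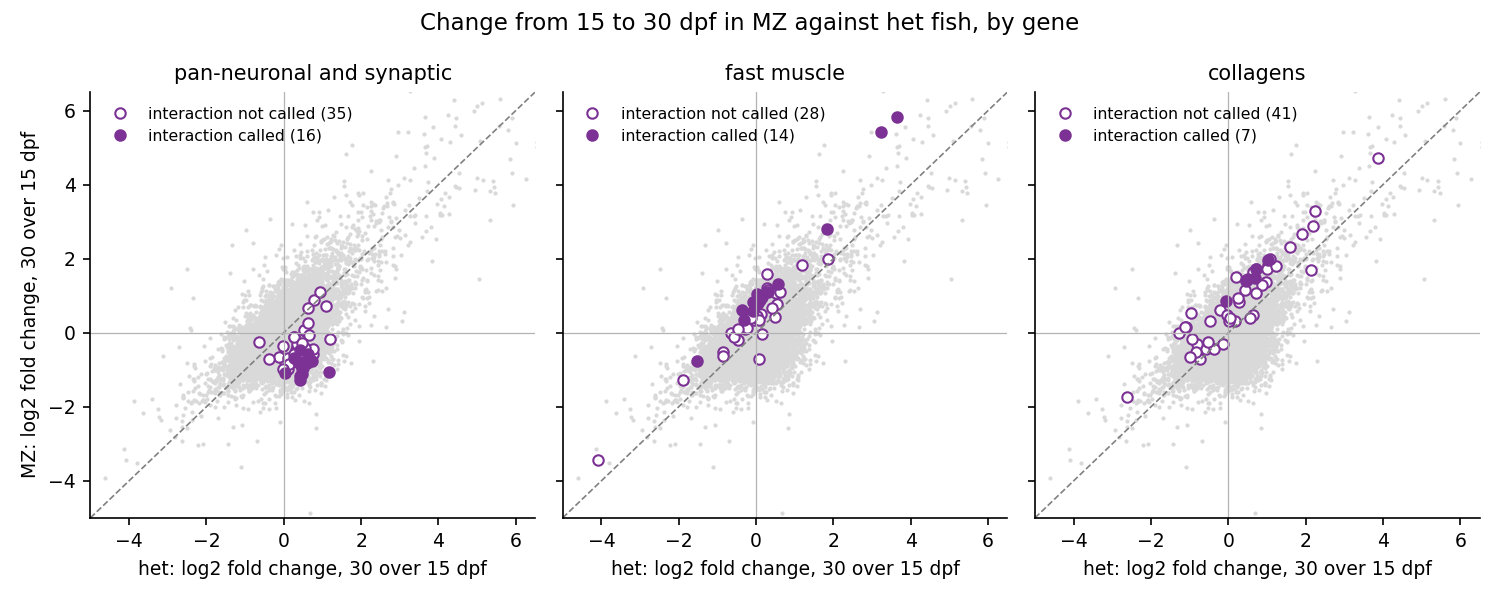
Log2 fold change from 15 to 30 dpf in MZ fish against that in het fish for every gene tested in both (grey, with the few genes beyond the axes left out) and for 3 gene lists (purple; filled where the interaction was called). Neuronal genes called by the interaction lie below the dashed line of equal change, with MZ values below 0, whereas fast muscle and collagen genes so called lie above it.

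Muscle and matrix genes differed in the other direction. Of 42 fast muscle genes, 14 had a higher step in MZ fish and none a lower one. The interaction called 2.28% of all genes, which is the background for the lists of this paragraph. tnni2a.3 went from 21.7, 33.4 and 34.4 to 419, 264 and 437 CPM in het fish, so it rose in both genotypes and by more in MZ fish (difference 2.16, SE 0.30, adjusted p = 0.0121). myha went from 15.6, 16.5 and 14.4 to 252, 86.6 and 94.6 CPM in het fish (difference 2.18, SE 0.51, adjusted p = 0.0433). mybpc2a differed by 0.96, SE 0.21, adjusted p = 0.0342, with het values of 6.91, 8.10 and 7.02 and 29.8, 25.3 and 23.2 CPM. For all 3 genes the MZ libraries at 30 dpf lay above the het libraries of that age, apart from an overlap in myha. For tnni2a.3 and myha all MZ libraries at 15 dpf lay below all het libraries, so the higher step also reflects a lower start. In fast muscle as a whole, 9 genes rose and 10 fell in het fish, and its summed level was 117700.0, 116400.0 and 103000.0 and 91770.0, 87090.0 and 99920.0 CPM there. Of 48 collagens, 7 had a higher step in MZ fish, as did 5 of 22 metalloproteases and inhibitors, among them mmp2, with 111, 106 and 109 and 193, 162 and 164 CPM in het fish (difference 0.87, SE 0.14, adjusted p = 0.0204). At 15 dpf mmp2 was lower in all MZ than in all het libraries. So were the summed collagens, at 2097, 2276 and 2088 CPM in MZ and 3254, 3027 and 3146 CPM in het fish. At 30 dpf the summed collagens overlapped, at 4816, 5156 and 6194 against 5059, 4847 and 3822 CPM. Over the 12 fits that left out a library, between 1 and 17 fast muscle genes, between 0 and 8 collagens and between 0 and 5 metalloproteases were called. Each count was lowest without replicate 1 of the het 15 dpf or of the MZ 30 dpf group, and that of the collagens also without replicate 3 of the het 30 dpf group.

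**Figure D5:**
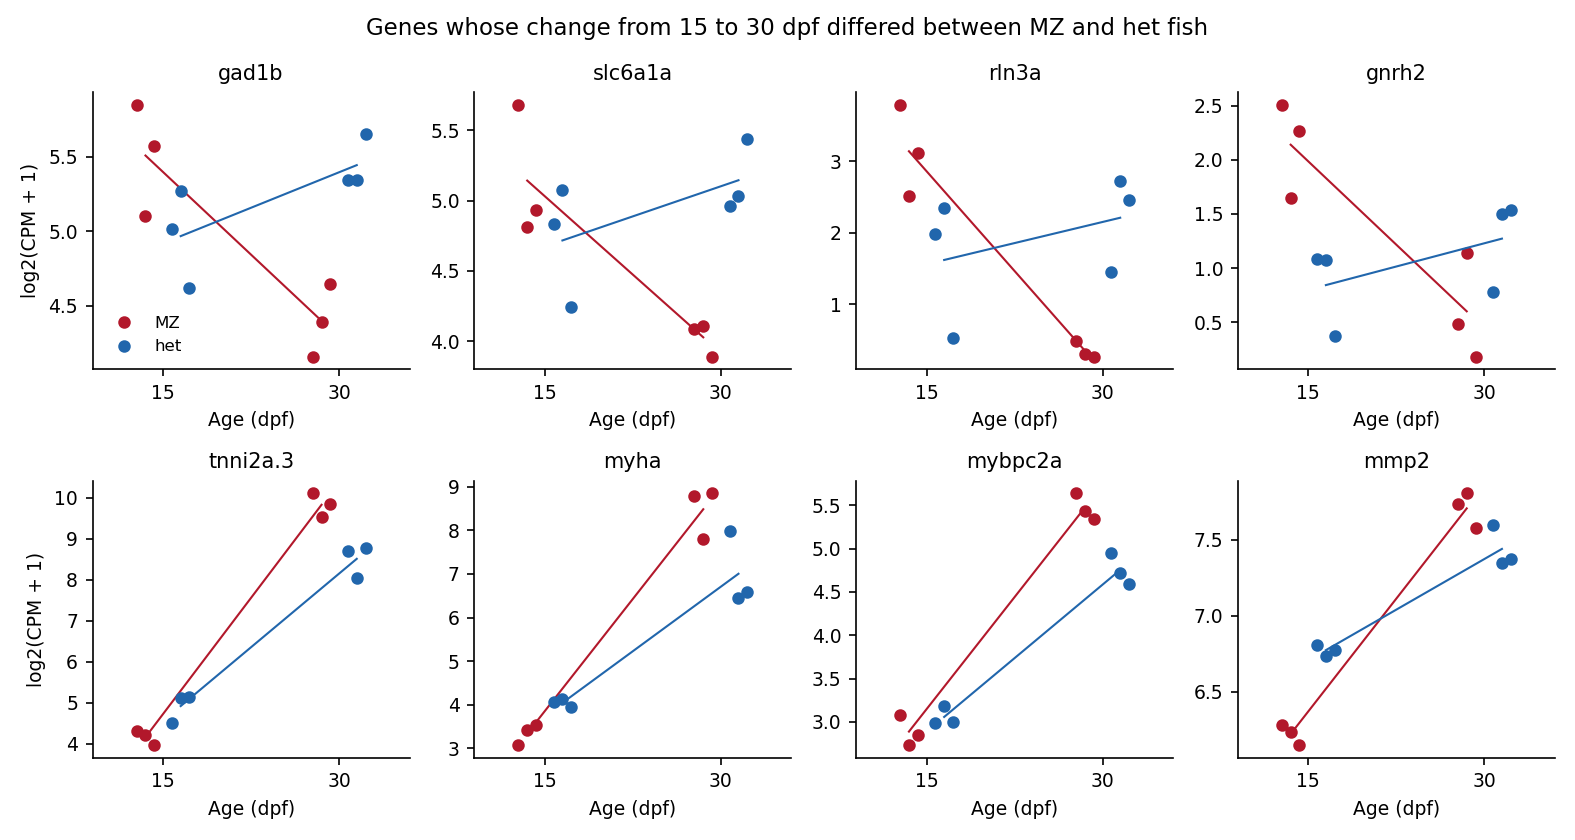
log2(CPM + 1) at 15 and 30 dpf in each library of MZ (red) and het fish (blue) for 8 genes whose change differed between the genotypes; lines join group means and each panel has its own scale. The group means of gad1b, slc6a1a and the peptides rln3a and gnrh2 go down in MZ and not in het fish, and those of the muscle genes and mmp2 go up in both and further in MZ fish.

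Some liver genes differed with a lower step in MZ fish, while the plasma protein gene itih1, described below, differed the other way. In het fish 43 of the 45 plasma protein genes rose, with a median log2 fold change of 0.96. The interaction called 7 of 45, all with a lower step in MZ fish, against 2.28% of all genes. The liver fatty acid binding protein fabp10a stood at 1607, 1340.5 and 1378 and 1159, 1222 and 1568 CPM in MZ fish (log2 fold change -0.08, adjusted p = 0.746) and rose by 0.81 in het fish (adjusted p = 0.000612). The difference was -0.90, SE 0.19, adjusted p = 0.0308, and between 0 and 11 plasma protein genes were called with a library left out. The adult globins, the oocyte genes and the lens genes had 0 genes called by the interaction in edgeR, of 4, 32 and 66 tested. At an unadjusted p under 0.05 the numbers were 0, 0 and 16, and DESeq2 called 0, 0 and 1. Their steps in het fish stood in the same direction for the genes named, with ba1 from 0, 0 and 0 to 1169, 1408 and 1081 CPM, zp3a.1 from 0.0698, 0 and 0 to 108, 84.8 and 33.4 CPM and crygm6 from 0.0698, 0 and 0.222 to 9.99, 26.0 and 12.3 CPM. This does not show that the genotypes were alike.

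Among the genes named for their difference alone, ccl19a.2, a chemokine, had the highest. It had 1 count in the MZ 15 dpf group and stood at 3.78, 1.88 and 1.80 CPM at 30 dpf, against 0.0698, 0.629 and 0.222 and 0.719, 0.784 and 0.574 CPM in het fish (difference 4.86, SE 1.21, adjusted p = 0.0489), and the size of this difference rests on that single count. itih1, which binds hyaluronan in plasma, went from 1.08, 2.66 and 1.64 to 8.19, 12.4 and 5.39 CPM in MZ and from 3.35, 3.93 and 5.61 to 3.23, 5.55 and 3.50 CPM in het fish (difference 2.42, SE 0.51, adjusted p = 0.0308). All MZ libraries of itih1 lay below all het libraries at 15 dpf, and the genotypes overlapped at 30 dpf. cbln12, a cerebellin, a synapse organiser, went from 5.78, 3.94 and 3.28 to 1.81, 0.527 and 1.06 CPM in MZ fish and from 2.79, 3.38 and 2.66 to 2.87, 4.70 and 6.15 CPM in het fish (difference -2.54, SE 0.52, adjusted p = 0.0283). cabp5a, a calcium-binding protein of retinal bipolar cells, overlapped between the ages in MZ fish, at 15.4, 10.4 and 8.90 and 9.21, 14.5 and 18.3 CPM, and rose in het fish from 3.42, 3.62 and 2.51 to 25.7, 14.4 and 38.8 CPM (difference -2.73, SE 0.47, adjusted p = 0.0204). All MZ libraries of cabp5a lay above all het libraries at 15 dpf, and the genotypes overlapped at 30 dpf. Of the other genes with the largest falls in MZ fish, fut9d, a fucosyltransferase, went from 16.8, 25.4 and 23.6 to 3.54, 2.26 and 4.32 CPM (log2 fold change -2.63, SE 0.24, adjusted p = 4.14e-05) and pdzd3b, a scaffold protein, from 21.1, 22.2 and 23.1 to 4.96, 3.99 and 3.99 CPM (log2 fold change -2.30, SE 0.16, adjusted p = 7.54e-06). Both fell in het fish as well, with log2 fold changes of -2.94 for fut9d and -1.69 for pdzd3b.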

How the data were processed

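Whole-body RNA sequencing counts per gene were used from 6 MZ libraries (15 and 30 dpf, 3 each), with 6 het libraries of the same ages for the interaction and the MZ libraries of 5 dpf in 1 figure. Total RNA was extracted with Trizol and columns and made into SMARTer libraries, per the labels' protocols. The authors deposited raw counts in one table of 28870 gene names, of which 1851 were at 0 in all 18 libraries and 1231 carry the suffix of a family copy. The table's columns were matched to samples by genotype, age and replicate, with 0 columns unmatched. Per the submitters' processing notes, cutadapt, STAR 2.5.4b, Subread and featureCounts 1.6.3 and the build GRCz10 were used. Their order, settings, annotation and strand setting are not given in the sources used here, so reads of overlapping genes and near-identical copies may be split or dropped.

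Counts were tested with edgeR 4.0.16 (R 4.3.3, limma 3.58.1), with filterByExpr at a minimum count of 10, TMM factors and the quasi-likelihood F test, in a fit of the 6 MZ libraries and, for the interaction, of all 12 libraries. Genes with a Benjamini-Hochberg adjusted p under 0.05 were called, and the SE is the size of the log2 fold change divided by the square root of F. Printed CPM use TMM factors over all 18 libraries. A gene at 0 in a group was set against a floor of 3 counts in each library of the group, taken as CPM and averaged. A group total of 1 to 3 counts was given as a ratio with an interval at the 95% level. Floors and intervals cover counting error only. The tests were first run on simulated data with known fold changes.

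Genes were grouped in 44 lists with 1591 entries, of which 1526 (1509 different genes) matched the table by name, or by a synonym in RefSeq's GRCz12tu table, which was used for names alone. The members and the lists were chosen with earlier results of these data known. Named genes are the 10 highest and 10 lowest called fold changes with a mean of at least 5 CPM in the higher group and no overlap, without clone-style names and family copies. Added to these are up to 3 called genes of each direction per list, the larval and adult forms of a protein, all genes of short lists, and the 5 highest and 5 lowest called interactions with at least 1 CPM. Where a list is illustrated by other genes, fabp10a among them, these were chosen after their values were seen. The libraries were not paired by replicate number in the main fits. Same-numbered MZ libraries of the 2 ages deviated with r of -0.131, -0.0548 and -0.122. With 3 libraries in a group, these values cannot exclude pairing. The alternatives were DESeq2 1.42.0, RLE and upper-quartile factors, no filter, a minimum count of 50, one fit over all 18 libraries, the replicate number as a block, and leaving out each library. No genome, promoter or protein sequence was used here.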

Additional observations from a re-analysis of the deposited data

Results flagged for a closer look

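For 31 of the genes named the step from 15 to 30 dpf differed between MZ and het fish, as tested by the interaction of age and genotype in edgeR at an adjusted p under 0.05. The values are the log2 fold change in MZ fish minus that in het fish, with 3 libraries in each of the 4 groups. All but tnni2a.3 lost the call under at least 1 alternative.

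In 14 genes the step was lower in MZ fish. The genes of neuropeptides and synapses, with the ubiquitin ligase hecw2a, included rln3a at -5.57, gnrh2 at -3.43, hecw2a at -3.04, cbln12 at -2.54 and cart4 at -2.33. Lower in size were the values of the receptor and transporter genes, with grin1b at -1.72, slc1a2b at -1.68, gad1b at -1.60 and slc6a1a at -1.60. The retinal genes were cabp5a at -2.73, opn1sw1 at -1.46 and arr3b at -1.34, the parvalbumin pvalb6 stood at -0.93 and the liver gene fabp10a at -0.90. Of these, cabp5a and fabp10a had no call in MZ fish and rose in het fish.

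In 17 genes the step was higher in MZ fish. The muscle genes were myha at 2.18, tnni2a.3 at 2.16, smyhc2 at 1.01, mybpc2a at 0.96, mybpc1 at 0.88, neb at 0.78, atp2a1 at 0.76 and tnnt2d at 0.63. The calcium pump atp2a1 and the troponin T tnnt2d had negative fold changes in both genotypes, of -0.76 and -0.91 in MZ and -1.53 and -1.55 in het fish. The genes of matrix and skin were mmp20a at 2.99, cyt1 at 1.04, mmp2 at 0.87 and matn4 at 0.76. The remaining ones were ccl19a.2 at 4.86, itih1 at 2.42, ms4a17a.2 at 1.86, gpnmb at 1.01 and igfbp3 at 0.82.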

How the results depend on the processing

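Of 226 named genes called for the MZ step, 175 kept their call and direction under every alternative in which they were tested (19 of these had too few counts for a minimum of 50 or no DESeq2 value), 51 lost it in some fit with a library left out, 14 of them also in a fit of all libraries, and 0 reversed. The 3770 MZ calls became 5768 in one fit over all 18 libraries, with 43.2% of calls higher against 53%, and 2434 to 3372 with a library left out. The 4277 het calls became 2772 to 3729. The 468 interaction calls became 1025 in DESeq2, 817 in one fit over all 18 libraries (34.8% higher against 45.5%; 38.1% with upper-quartile factors), and 5 to 567 with a library left out, and 30 of 31 named interaction genes lost their call somewhere. With the replicate number as a block the counts were 3172, 4527 and 256. The cause of these shifts was not tested. Genes without a call changed sign as follows. In the fit over all 18 libraries pcsk1 stood at -0.035 and spon1b at -0.021, and with the block gcgb at 0.048. With a library left out the log2 fold change ran from -0.19 to 0.25 for pcsk1, from -0.38 to 0.30 for pcsk2, from -0.067 to 0.093 for spon1b, from -0.26 to 0.48 for gcgb, from -0.91 to 0.16 for ins, from -0.026 to 0.20 for fech, from -0.0096 to 0.17 for urod, from -0.017 to 0.58 for SPDEF from -0.017 to 0.54 for st3gal1l, from -0.14 to 0.088 for ckma and from -0.21 to 0.014 for fabp10a. The median of the endocrine pancreas list ran from -0.63 to 0.16. Genes under the count filter, such as scospondin, could not be tested at this depth.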

Other observations

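Of 43 tested immediate early and stress genes, 11 rose and 3 fell, with a median log2 fold change of 0.03. The genes that rose encode chaperones and heat shock proteins, and others of that kind in the list did not pass, such as hspe1 (0.35, adjusted p = 0.0603) and hsp70.2 (0.36, adjusted p = 0.315). hsp90aa1.2, a heat shock protein, went from 39.8, 49.5 and 65.6 to 207, 269 and 215 CPM (log2 fold change 2.21, SE 0.18, adjusted p = 1.56e-05), and serpinh1b, the collagen chaperone, from 44.1, 62.5 and 57.3 to 255, 259.8 and 200.4 CPM (log2 fold change 2.19, SE 0.15, adjusted p = 7.31e-06). The libraries of the ages did not overlap for either gene. hsp90aa1.1 rose by 1.78 on the log2 scale. The glucocorticoid-responsive kinase sgk1 fell by 0.70. Without replicates 1 and 2 of the 15 dpf group, 6 and 7 genes rose, and without replicate 3 of the 30 dpf group 5 fell. In het fish 10 genes of the list rose and 22 fell. The interaction called 1 of 43 genes in edgeR (2.28% of all genes were called), with a higher step in MZ fish. DESeq2 called 11 with a higher and 1 with a lower step, and the edgeR fits with a library left out called between 0 and 9, the most without replicate 1 of the MZ 15 dpf group.

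Of 39 clock genes, 8 fell and 2 rose, or 25.6% against the background of 19.3%. per2, a light-induced repressor of the clock, went from 76.0, 68.8 and 67.8 to 33.3, 25.3 and 40.0 CPM (log2 fold change -1.05, SE 0.16, adjusted p = 0.000955) and cry-dash, a light-induced photolyase relative, from 40.6, 43.4 and 37.6 to 19.4, 18.9 and 18.2 CPM (log2 fold change -1.05, SE 0.12, adjusted p = 0.000175). In het fish 11 fell and 4 rose, and the labels used here give no hour of sampling. The number that fell in MZ fish was 5 without replicate 1 of the 15 dpf group or replicates 1 and 2, each in turn, of the 30 dpf group, and 13 without replicate 3 of the latter, and 0 rose without replicate 2 of the 15 dpf group. Of 41 pigment cell genes, 11 rose and 2 fell, or 31.7% against the background of 19.3%. Without replicate 3 of the 15 dpf group, 7 rose. asip1, the ventral inhibitor of dark pigment, went from 2.08, 2.45 and 1.64 to 6.14, 4.59 and 6.72 CPM (log2 fold change 1.56, SE 0.27, adjusted p = 0.00233), and scarb1, needed for carotenoid colour in zebrafish, rose by 1.07. Of 16 tested genes of the thyroid hormone pathway, 2 rose and 3 fell, or 31.2% against the background of 19.3%. Without replicate 1 of either age, 1 fell. tg, the thyroglobulin from which the hormone is cut, went from 0.0770, 0.106 and 0.259 to 2.36, 0.979 and 4.32 CPM (log2 fold change 4.09, SE 0.70, adjusted p = 0.00231), and dio2, which activates the hormone, rose by 1.92. tg could pass the filter only through 30 dpf, so a rise was the only call open to it. The hormone transporter slc16a10 fell by 0.87 on the log2 scale.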
